A study of Rattus norvegicus with 2 samples.

Results

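The genes described here are 10 genes of the extracellular matrix outside the collagens: the matrix glycoproteins Postn, Ccdc80, Fn1, Sparc and Fbn1, the small proteoglycans Dcn, Lum, Bgn and Fmod, and the tendon gene Tnmd. They were found by gene symbol in the platform's probe annotation, and they are 10 of 13337 named genes on the array. Each had 1 probe, so the brightest-probe rule had no choice to make. The set was chosen by function and by the measured EA and Mock signals of these same arrays, so every value below is a description. The study compared skeletal muscle RNA of diabetic rats on Illumina bead arrays, 1-colour arrays on which each probe measures a transcript. The EA sample came from a rat muscle treated by electroacupuncture, in which current is passed between acupuncture needles, and the Mock sample is its counterpart. The rats of both groups were male Wistar animals, 8 to 10 weeks old, in which diabetes had been induced with streptozotocin, which kills pancreatic beta cells. The protocol text, which both samples carry unchanged, gives 32 gauge needles at ST36 (a point on the lower leg), 5 min of needling, and then 60 min of stimulation at 15 Hz and 10 mA. What the Mock animals received, which muscle was taken, how long after stimulation, and how many rats stand behind a sample are not stated. There was 1 array per group, so no difference has a replicate check, a standard error or a p-value, and the effect of treatment and any other difference between the rats or samples cannot be told apart.

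The extracellular matrix of skeletal muscle is a network of collagen fibrils, microfibrils and glycoproteins that surrounds the fibres and passes their force to the tendon. It is made mainly by fibroblasts and fibro-adipogenic progenitors, connective tissue cells between the fibres, and at the ends of the muscle by tenocytes, the cells of tendon. Small leucine-rich proteoglycans such as decorin and fibromodulin sit on collagen fibrils and regulate their diameter, while matricellular glycoproteins such as periostin modulate how cells bind the matrix. In a bulk sample, fewer cells of a type and less RNA per cell cannot be told apart.

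Of 22523 probes, the EA array detected 7235 (32.1%) and the Mock array 6918 (30.7%), at a detection p-value under 0.01. The detection p-value ranks a probe's signal against control probes on its own array and says nothing of the difference between arrays. The median non-normalized signal of undetected probes, a measure of background, was 125 for EA and 119.8 for Mock. Of the 10 genes, 9 were detected on both arrays and Bgn on the Mock array alone. Signals were background-corrected, quantile normalized and put on the log2 scale, and differences are EA minus Mock. Across 65 pairs of probes for 1 gene, the log2 difference between the arrays had an SD of 0.25 for a single probe. This SD is a technical yardstick that leaves out the variation between animals. Muscle fibre markers were detected on both arrays, all 10 of 10 with a probe. Their summed normalized signal was 326164 on the EA array, against 320334 on the Mock array. Quantile normalization gives both arrays the same set of signal values, so near-equal sums of very bright probes were partly fixed in advance. Single markers ran from Mb at -0.45 to Myh4 at 0.70. Without normalization between arrays the median difference of these markers was 0.08, against 0.03 as reported.

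The matrix glycoproteins were all higher on the EA array, 4 of them by more than 2-fold, and Tnmd and Fmod were lower. Ccdc80, Postn, Fn1 and Fbn1 were the 4 higher by at least 2-fold, and Tnmd was lower by at least 2-fold. The same was true of 2.08% (105) and 0.456% (23) of all 5047 genes that both arrays detected. These shares are given for scale only, because the same contrast chose the 10 genes. The median difference of the 9 genes was 0.65, against -0.06 for all genes, and 7 of the 9 lay above 0. The remaining 4 of the 9 genes were Dcn and Sparc, both about 0.6 higher on the log2 scale, Lum, which was close to 0, and Fmod, which was lower.

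**Figure D1:**
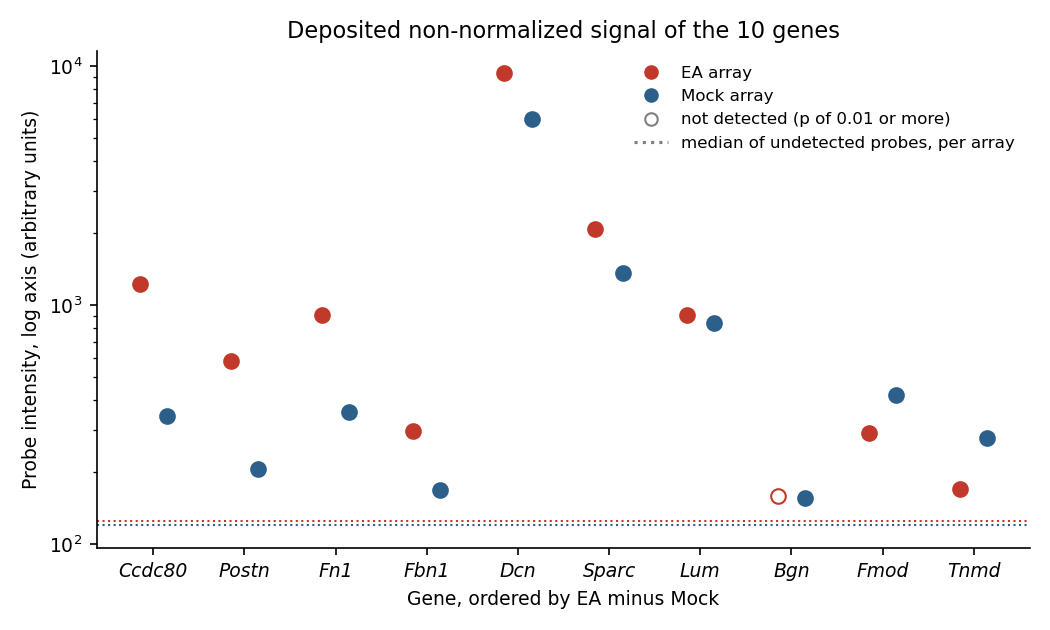
Non-normalized probe intensity (arbitrary units, log axis) of the 10 genes on the EA array (red) and the Mock array (blue), 1 point per array; open circles are not detected, and dotted lines are the median of undetected probes. Ccdc80 stands at 1227 on the EA array, against 342 on the Mock array, Tnmd at 169 for EA and 277 for Mock, and Bgn at 159 for EA and 156 for Mock, just above the dotted lines.

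Ccdc80 encodes a secreted matrix-binding protein that in mouse has been linked to adipocyte differentiation and glucose balance. Its probe (ILMN_1362820) had a non-normalized signal of 1227 on the EA array, against 342 on the Mock array. On the normalized log2 scale this was 10.12 on the EA array, against 7.93 on the Mock array, a difference of 2.19, or 4.57-fold higher on the EA array. It was the highest of the 9 genes, and 16 of 5047 genes, itself included, lay as high. In the authors' deposited table its intensity was 1732 for EA and 559 for Mock, 3.10-fold higher.

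Postn encodes periostin, a matricellular protein of remodelling connective tissue that binds collagen and fibronectin. Its probe (ILMN_1360313) had a non-normalized signal of 583 on the EA array, against 206 on the Mock array. After normalization the log2 signals were 8.86 on the EA array, against 6.79 on the Mock array, 4.19-fold higher on the EA array. The EA signal lay 3.20 above that array's detection floor and the Mock signal 1.01 above its own, where the floor is the lowest log2 signal of any detected probe. The fold depended on the background: it was 2.53 without background correction and 2.63 in the authors' deposited table.

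Fn1 encodes fibronectin, the glycoprotein to which cells attach through integrins and on which other matrix fibrils assemble. Its probe (ILMN_1348956) read 908 on the EA array, against 358 on the Mock array before normalization. Normalized log2 signals were 9.63 on the EA array, against 8.04 on the Mock array, 3.02-fold higher on the EA array, and 2.32-fold higher in the authors' deposited table. Fibronectin stayed past 2-fold under every processing tried, as did Ccdc80 and Postn, apart from a stricter detection threshold of 0.001, at which Postn no longer counted as detected on the Mock array. Its detection p-value there was 0.00121.

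Fbn1 encodes fibrillin-1, the main protein of the microfibrils that carry elastin and hold latent TGF-beta. Its probe (ILMN_1359541) read 298 on the EA array, against 168 on the Mock array, where its detection p-value was 0.00606. The normalized log2 signals were 7.51 on the EA array, against 6.14 on the Mock array, 2.59-fold higher on the EA array. The Mock signal lay only 0.36 above the detection floor. The 2-fold call was lost without background correction, at 1.59-fold, and in the authors' deposited table, at 1.81-fold.

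Sparc encodes osteonectin, a collagen-binding matricellular protein that takes part in collagen deposition. Its probe (ILMN_1356384) read 2073 on the EA array, against 1363 on the Mock array. After normalization it stood at 10.93 on the EA array, against 10.29 on the Mock array (log2), 1.56-fold higher on the EA array. The difference of 0.64 was 2.59 times the SD between probes of a gene. Both signals lay more than 4 log2 units above the floor, at 5.27 on the EA array, against 4.51 on the Mock array, and the log2 difference was 0.44 with arrays scaled to their 75th percentile, the lowest of the alternatives. The fold was 1.51 without background correction and 1.45 in the authors' deposited table.

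**Figure D2:**
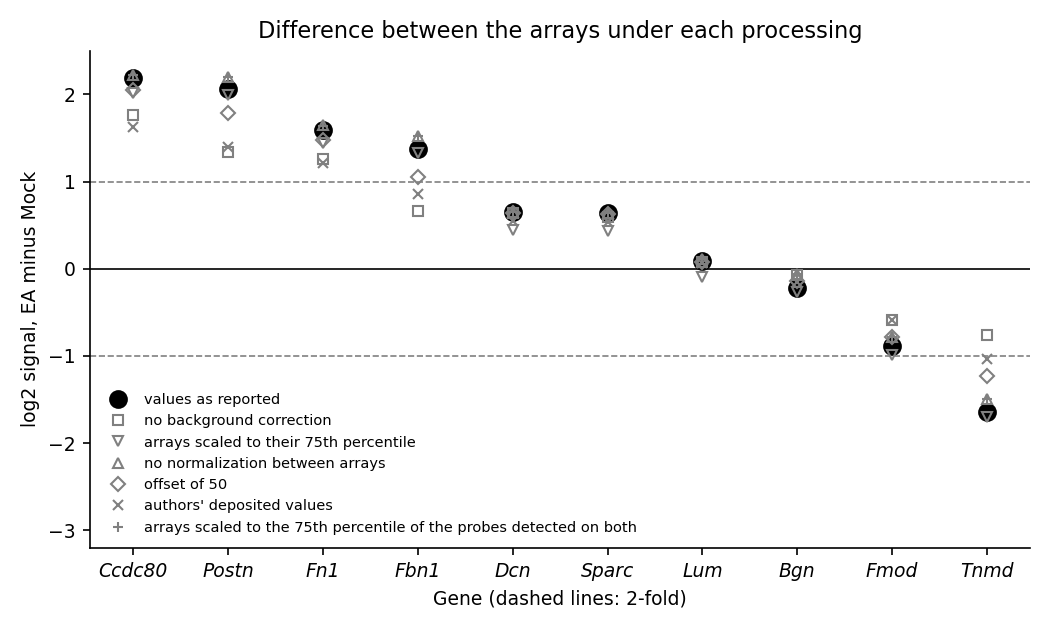
Difference in log2 signal, EA minus Mock, for each gene (horizontal axis) as reported (black) and under 6 other ways of processing (grey symbols); dashed lines mark 2-fold. Fbn1 runs from 0.66 to 1.53 and Tnmd from -1.70 to -0.76, while the lowest values of Dcn and Sparc are 0.45 and 0.44.

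The small leucine-rich proteoglycans did not all lie on the same side. Dcn encodes decorin, which binds collagen fibrils and TGF-beta. Its probe (ILMN_1351656) read 9309 on the EA array, against 5969 on the Mock array. On the normalized log2 scale its signals were 13.15 on the EA array, against 12.50 on the Mock array, 1.57-fold higher on the EA array, and 1.47-fold higher in the authors' deposited table. This difference of 0.65 was 2.64 times the SD between probes.

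Lum encodes lumican, a keratan sulphate proteoglycan of collagen fibrils. The probe (ILMN_1352701) read 904 on the EA array, against 841 on the Mock array, and the normalized log2 signals were 9.63 on the EA array, against 9.54 on the Mock array. The difference of 0.08 was 0.34 times the SD between probes, and it was -0.09 when the arrays were scaled to their 75th percentile, where the median of all genes was -0.19. Relative to the median gene Lum lay 0.14 higher as reported and 0.10 higher under that scaling.

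Fmod encodes fibromodulin, the closest relative of lumican among these genes and abundant in tendon. Its probe (ILMN_1371407) read 292 on the EA array, against 419 on the Mock array. Normalized log2 signals were 7.46 on the EA array, against 8.35 on the Mock array, 1.85-fold lower on the EA array, and in the authors' deposited table the log2 difference was -0.59. It was short of 2-fold under every processing tried, and 34 of 5047 genes, itself included, lay as low.

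Bgn encodes biglycan, the nearest relative of decorin. Its probe (ILMN_2040208) read 159 on the EA array, against 156 on the Mock array, with a detection p-value of 0.0121 for EA and 0.0097 for Mock, so it stood on opposite sides of the 0.01 threshold with almost the same signal. The normalized log2 signals were 5.63 on the EA array, against 5.85 on the Mock array. The non-normalized signals and the normalized ones put the arrays in opposite order. No direction is given for biglycan.

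The family has further genes outside the 10. Across all of it 12 genes had a probe, 6 were detected on both arrays and 4 on neither, and the median difference of the 6 was 0.23. Aspn, asporin, of the same class as decorin and biglycan, had normalized log2 signals of 7.83 on the EA array, against 6.86 on the Mock array, a difference of 0.97. Prelp, of the class of lumican and fibromodulin, differed by 0.24, and Ogn, osteoglycin, by 0.21. Omd, osteomodulin, was detected only on the EA array and was at least 1.23-fold higher there. A bound of this kind compares the log2 signal of the array that detected the probe with the other array's detection floor, or with the probe's own signal there if that is higher. It belongs to the processing as reported, and without background correction the bound of Omd was 1.07-fold. Kera, Chad, Epyc and Nyx were detected on neither array. Fmod was the 1 member of the family, of the 6 detected on both arrays, that lay below 0.

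Tnmd encodes tenomodulin, a membrane glycoprotein that is a marker of mature tenocytes. Its probe (ILMN_1352537) read 169 on the EA array, against 277 on the Mock array. The normalized log2 signals were 5.87 on the EA array, against 7.51 on the Mock array, a difference of -1.64, or 3.12-fold lower on the EA array. Of 5047 genes, 7 lay as low, itself included. On the EA array the signal lay 0.21 above the detection floor, and the size of the fold depended on the background. The detection p-value on that array was 0.00848. Tnmd was 1.69-fold lower without background correction, which ends the 2-fold call, and 2.05-fold lower in the authors' deposited table.

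**Figure D3:**
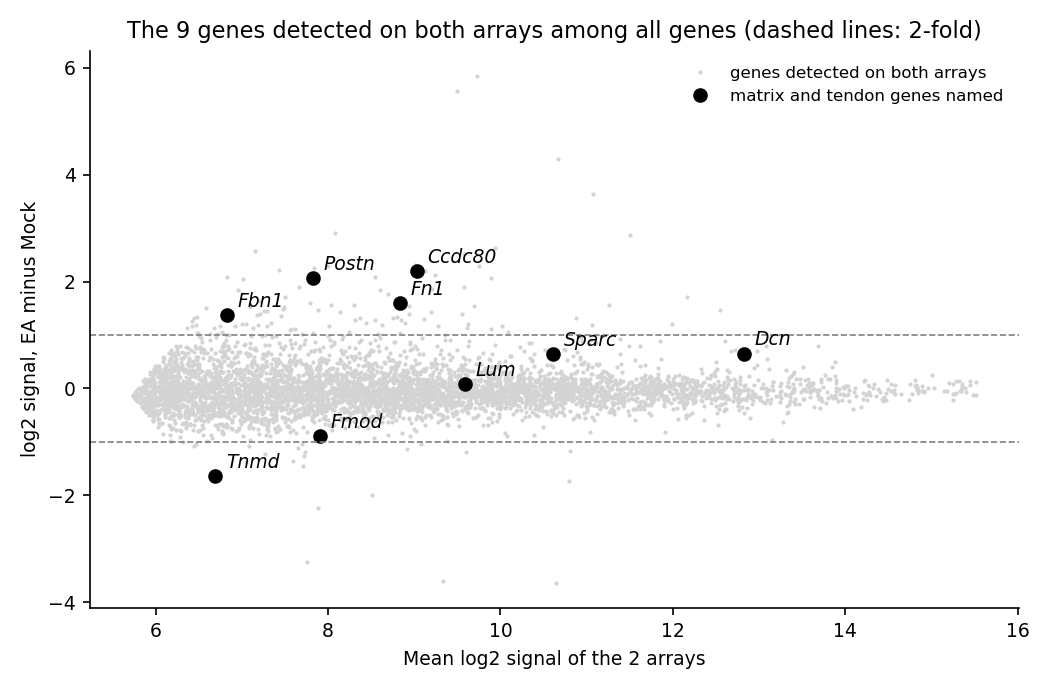
Difference in log2 signal, EA minus Mock, against the mean log2 signal of both arrays for the 5047 genes detected on both (grey), with the 9 genes detected on both in black; dashed lines mark 2-fold. Ccdc80, Postn, Fn1 and Fbn1 lie above the upper line, Tnmd below the lower line, and Dcn and Sparc stand at about 0.6 among bright genes.

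Other genes of the tendon were read from a list that leaves out Tnmd and Fmod. Of 16 with a probe, 9 were detected on both arrays, 3 were higher by at least 2-fold with EA, none was that much lower, and the median was 0.35. Egr1 and Egr2, transcription factors that in mouse act in tendon formation and that are also immediate early genes, were higher by 5.84 and 2.62, and by 4.47 and 2.08 with the authors' deposited values. Col14a1, a collagen of fibril surfaces, was higher by 1.30. Thbs4, thrombospondin 4, a glycoprotein of tendon and of the muscle-tendon junction, had normalized log2 signals of 10.29 on the EA array, against 10.51 on the Mock array, a difference of -0.22, smaller than the SD between probes. Of the tenocyte markers, Chad, Kera and Cilp2 were detected on neither array, and Scx, Mkx and Comp had no named probe here. The summed signal of the 6 tenocyte markers with a probe was 1566 on the EA array, against 2064 on the Mock array. Without Tnmd and Fmod it was 1332 on the EA array, against 1555 on the Mock array. Undetected probes are included in both sums. Of the 4 markers left, Thbs4 alone was detected, so the smaller sum mostly repeats its signal. The part of tendon tissue in the differences of Tnmd and Fmod was not tested.

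Matrix glycoproteins outside the 10 genes lay mostly on the same side. Of 29 with a probe, 19 were detected on both arrays, 1 was higher on the EA array by at least 2-fold, and none was that much lower. Their median was 0.47, and 18 of the 19 lay above the median gene. The highest were the matricellular CCN proteins: Ccn1, itself inducible by growth factors, was 2.61-fold higher, Ccn2, connective tissue growth factor, 1.89-fold and Ccn3 1.86-fold higher. Dpt, dermatopontin, which binds decorin, was 1.63-fold higher. The lowest were Ltbp1, a latent TGF-beta binding protein, at -0.09, Smoc2, a calcium-binding relative of Sparc, at -0.02, and Mfap4, a microfibril-associated protein, at 0.07. Eln, the elastin carried by fibrillin microfibrils, was detected only on the EA array and was at least 1.26-fold higher there, or 1.08-fold without background correction.

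Proteoglycans outside the 10 genes, whether small, large or on the cell surface, had a smaller median difference than the other matrix glycoproteins. Of 23 with a probe, 10 were detected on both arrays, none was 2-fold different in either direction, and the median was 0.23. Of the 10, 8 lay above the median gene. Aspn, described above, was highest at 0.97. It passed 2-fold without normalization between arrays and with scaling to the 75th percentile of probes detected on both. Vcan, versican, a hyaluronan-binding proteoglycan of provisional matrix, was higher by 0.67, with a Mock signal of 5.99 near the floor of 5.78. Prg4, lubricin, which lubricates tendon and joint surfaces, differed by 0.35, and Cspg4, a marker of pericytes, by -0.18.

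The collagens, to which these proteins bind, were read for comparison. Of 12 with a probe, 9 were detected on both arrays, 6 were higher with EA by at least 2-fold, none lay below 0, and the median was 1.22. With the authors' deposited values the median was 0.95, and without background correction 3 collagens were at least 2-fold higher.

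Enzymes that assemble, crosslink or break down the matrix were mixed. Of 32 with a probe, 18 were detected on both arrays, 6 were higher with EA by at least 2-fold, none was that much lower, and the median was 0.64. That median was 0.29 without background correction, 0.21 with no filter on detection and 0.20 at a detection threshold of 0.001. Plau and Plat, the urokinase and tissue plasminogen activators, were higher by 1.84 and 1.46, and Adamts1, a metalloprotease that cleaves versican, by 1.27. The Mock signal of Plau was 6.03, near the floor of 5.78. Over the ways of processing the lowest difference was 0.93 for Plau and 0.96 for Plat, both short of 2-fold. Timp1, an inhibitor of metalloproteases, was higher by 1.13, and Lox, which crosslinks collagen and elastin, by 0.72. The lowest were Plod2, a lysyl hydroxylase of collagen, at -0.56, Tgm2, a transglutaminase that crosslinks fibronectin, at -0.43, and Plod3 at -0.34. Pcolce, an enhancer of procollagen processing, was detected only on the EA array and was at least 2.15-fold higher there as reported. That bound was 1.61-fold with the authors' deposited values and 1.36-fold without background correction, both short of 2-fold. The count of 6 depended on the background, with 1 enzyme at least 2-fold higher both without background correction and with the authors' deposited values, and 3 with an offset of 50.

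**Figure D4:**
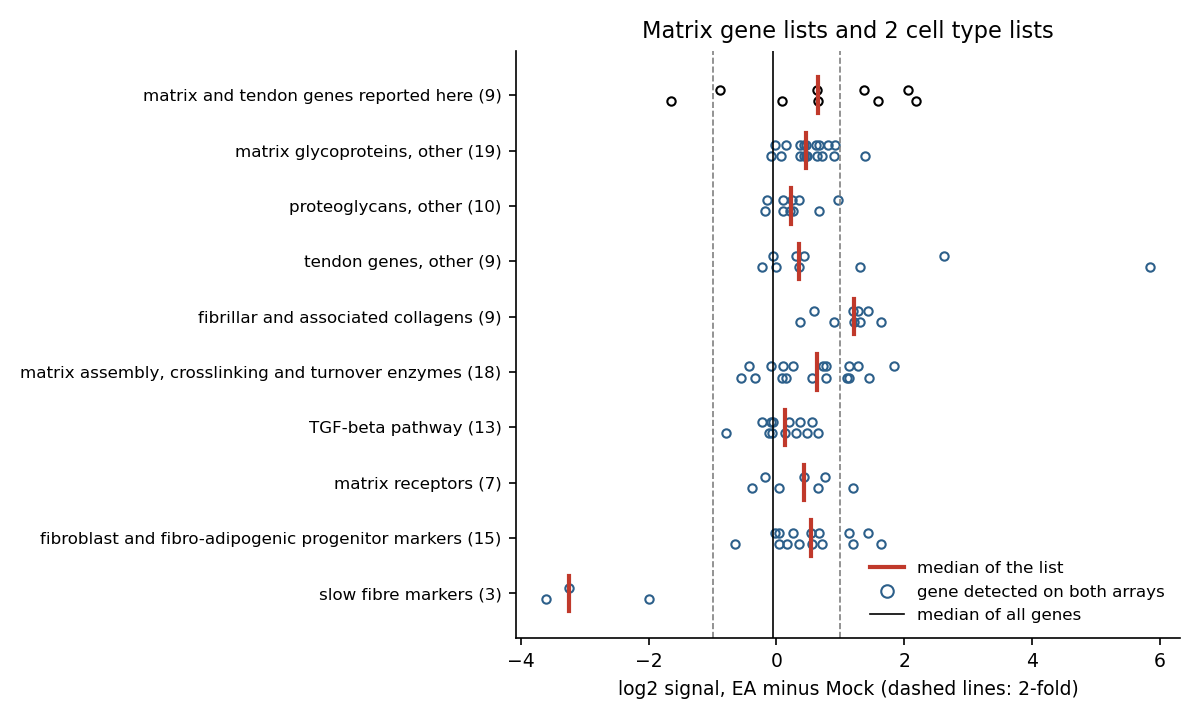
Difference in log2 signal, EA minus Mock, of each gene detected on both arrays (circles), by list, with the list's median (red) and the median of all genes (black line); the number in brackets counts the genes. Collagens centre at 1.22, other matrix glycoproteins at 0.47, other proteoglycans at 0.23, and the 3 slow fibre markers lie between -3.60 and -1.99.

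Most markers of connective tissue cells were also higher on the EA array. Of 21 fibroblast and fibro-adipogenic progenitor markers with a probe, none of them among the 10 genes, 15 were detected on each array. Their summed normalized signal, undetected probes included here and in the sums below, was 24317 on the EA array, against 15467 on the Mock array, a ratio of 1.57. Most of both sums, and of the gap between them, came from 2 probes. These were Gsn, at 13.37 on the EA array, against 12.82 on the Mock array (log2), and Col1a2, at 12.60 on the EA array, against 11.39 on the Mock array. Of the 15, 4 were higher with EA by at least 2-fold, none was that much lower, and the median was 0.55, but those 4 (Col1a1, Col3a1, Col1a2 and Fap) are themselves matrix genes or a matrix enzyme. With no filter on detection the median was 0.25. The count of 4 was 3 with the authors' deposited values and with an offset of 50. It was 2 without background correction and at a detection threshold of 0.001. The Mock signal of Fap was 5.80, near the floor of 5.78, and its difference was 0.71 with the authors' deposited values. Among markers that are not matrix proteins, Gsn, gelsolin, and Pdpn, podoplanin, each differed by 0.55. Pdgfra, the receptor that marks fibro-adipogenic progenitors, differed by 0.35, with a Mock signal of 5.97 near the floor of 5.78. Vim, an intermediate filament protein, differed by 0.25, the secreted Serpinf1 by 0.17, Pi16 by 0.05 and S100a4 by 0.03. Osr1, a transcription factor of these cells, differed by -0.65, with an EA signal of 5.72 near the floor of 5.66. Cd34, Dpp4, Tcf21, Tcf7l2, Thy1 and Twist2 were detected on neither array. The part of connective tissue cell number in the higher glycoprotein signals was not tested.

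Marker signals of other cell types differed between the arrays too. Of 7 slow fibre markers, 3 were detected on the EA array, against 5 on the Mock array, with a summed signal of 588 on the EA array, against 4461 on the Mock array. Of 11 endothelial markers 8 were detected on each array, with sums of 5140 on the EA array, against 4454 on the Mock array. Most of both sums came from Fabp4, which differed by -0.11. Of the 8, 3 were higher with EA by at least 2-fold, none was that much lower, and the median was 0.20. The 3 were Sox17 at 1.48, Cldn5 at 1.18 and Esam at 1.00. With the authors' deposited values they were short of 2-fold, at 0.96, 0.92 and 0.64. Of 11 macrophage and leukocyte markers 7 were detected on the EA array, against 6 on the Mock array, with sums of 1941 on the EA array, against 1398 on the Mock array, and Ptprc, Adgre1 and Cd163 were detected on neither. Smooth muscle and pericyte markers, 8 in all, summed to 1222 on the EA array, against 986 on the Mock array. Adipocyte markers, 7 in all, summed to 2084 on the EA array, against 1351 on the Mock array, with Adipoq and Lep detected on neither. Of the 3 adipocyte markers detected on both arrays, Cfd, adipsin, was higher by 0.85, while Lipe and Cidec, proteins of lipid droplets, differed by -0.16 and -0.44, with a median of -0.16. The EA signal of Cidec was 5.68, near the floor of 5.66. The 6 Schwann cell and nerve markers summed to 3518 on the EA array, against 1289 on the Mock array. Most of that gap came from Egr2, also an immediate early gene, which was higher by 2.62. Pmp22 was higher by 0.59 and Cnp was lower, at -0.61, while Mbp, S100b and Sox10 were detected on neither array. The 7 satellite cell markers summed to 4580 on the EA array, against 4284 on the Mock array. Most of both sums came from Myod1, at 12.07 on the EA array, against 11.98 on the Mock array (log2). Cdh15 differed by 0.28, Vcam1 was detected only on the EA array, and Pax7, Myf5, Calcr and Chrdl2 were detected on neither. The part of these cell types in the matrix differences was not tested.

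The sequence before the transcription start was read for the 7 of the 10 genes that RefSeq's promoter table of assembly GRCr8 holds, which leaves Fn1, Dcn and Bgn named only. The 250 bases before the start are shown for Postn and Ccdc80, the genes with the highest differences, and for Tnmd, the lowest. They run 5′ to 3′ on the gene's strand, and capitals mark matches to CANNTG (the E-box, bound by helix-loop-helix factors such as the tendon regulator scleraxis) or to TATAAA (the TATA box).
Postn, GRCr8 chr2:140677811-140678060, plus strand: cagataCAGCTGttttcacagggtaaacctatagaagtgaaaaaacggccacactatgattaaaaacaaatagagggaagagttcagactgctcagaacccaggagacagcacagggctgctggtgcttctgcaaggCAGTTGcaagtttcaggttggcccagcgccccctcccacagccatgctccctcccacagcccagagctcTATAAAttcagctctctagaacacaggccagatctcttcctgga
Ccdc80, GRCr8 chr11:69224845-69225094, minus strand: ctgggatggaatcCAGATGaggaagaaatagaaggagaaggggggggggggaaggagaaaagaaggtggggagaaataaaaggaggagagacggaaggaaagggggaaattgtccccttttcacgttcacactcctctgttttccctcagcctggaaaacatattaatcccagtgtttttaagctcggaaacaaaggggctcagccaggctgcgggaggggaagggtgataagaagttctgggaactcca
Tnmd, GRCr8 chrX:101350182-101350431, plus strand: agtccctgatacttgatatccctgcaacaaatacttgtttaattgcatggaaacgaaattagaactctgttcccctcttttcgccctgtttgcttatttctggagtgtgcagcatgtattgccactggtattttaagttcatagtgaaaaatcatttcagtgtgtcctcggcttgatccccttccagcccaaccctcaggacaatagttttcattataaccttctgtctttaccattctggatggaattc

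Searched on both strands, CANNTG matched in 4 of the 7 windows (Postn, Ccdc80, Sparc and Lum), against 65.5% of all 33469 windows of this length. TATAAA matched in Postn alone of the 7, starting 44 bases before the start, against 12.9% of all windows. TGANTCA, the AP-1 site, matched in none of the 7 and in 6.34% of all windows, GCGNGGGCG, the site of EGR factors, in none and in 4.29%, and GTCTAGAC, a palindromic SMAD site, in none and in 0.173%. None of these motifs overlaps another in the windows shown. A match is a run of letters and not a bound site, and no match says only that these letters are not in these windows. The window of Fbn1 was 71.2% G and C, and that of Tnmd 40.8%, the highest and the lowest of the 7.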

How the data were processed

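Biotinylated cRNA was prepared from total RNA with an Ambion kit, per the labels' protocols, for 1 EA and 1 Mock array. The deposited non-normalized table gives each probe's linear intensity and a detection p-value, per the file headers, taken to belong to the array in the column before it because it fell as that signal rose. The intensity values were not background-subtracted, with lowest values of 64.4 (EA) and 65.6 (Mock). The series table that the authors deposited holds other intensities of the same arrays, whose normalization and scale are unstated. It ranks probes as the first does (Spearman rho = 1 across probes) and so runs the same way, with medians of 137.5 (EA) and 137.3 (Mock), and it was used as an alternative. The sources used here do not give the scanner, beads per probe or genome build. The number of arrays limits the precision.

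Background was corrected with limma's nec from the detection p-values, with an offset of 16, then arrays were quantile normalized on the log2 scale (R 4.3.3, limma 3.58.1, Python 3.11.15, pandas 2.3.3). This was checked on simulated arrays. Known differences were given there only to probes with a Mock signal well above background, so the check does not cover signals near the detection floor. Genes were named through the platform annotation, with 13793 probes having 1 symbol, none several, and 8730 none here. Of these, 13752 matched RefSeq (GRCr8) by gene identifier and 5 by accession. The brightest probe stood for a gene. A gene was called at 2-fold, with no test. All 10 genes were described with every probe. Genes of the companion and marker lists detected on at least 1 array could be named, highest and lowest first. The 10 genes and all lists were chosen with earlier results of these data known. Alternatives were background, normalization, offset, detection threshold, probe rule and the authors' values.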

Additional observations from a re-analysis of the deposited data

How the results depend on the processing

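No replicate could be left out, as each group had 1 array. With 1 array per group no paired analysis was possible either, and no test was made. A difference was taken as moved when it changed by more than the SD of 0.25 between probes of a gene, and a count when it changed by over 1.5 times. A pair of settings, a detection threshold of 0.001 and scaling to the 75th percentile of probes detected on both arrays, were chosen after seeing the data. No gene past 2-fold changed sign. Of 95 values of single genes under alternatives, 80 moved by less than the SD and 15 by more. The 80 include every value under other detection thresholds, without the detection filter and with the mean of probes. Those values could not move, because each gene had a single probe and these settings leave its signal unchanged. The 15 all arose without background correction, with a larger offset or with the authors' deposited values. They belonged to Postn, Ccdc80, Fn1, Fbn1, Fmod and Tnmd. The median of the detected genes of the set lay between 0.45 and 0.65. The number of them at least 2-fold higher was 3 without background correction and with the authors' deposited values, where Fbn1 is lost, and 2 at a detection threshold of 0.001, which leaves 6 of the 10 genes. The number at least 2-fold lower was 0 without background correction and 0 at that threshold. Among all genes, those at least 2-fold higher and lower numbered 49 and 8 without background correction, 47 and 7 with the authors' deposited values, and 48 and 8 at a detection threshold of 0.001. Those lower numbered 35 at a detection threshold of 0.05 and 47 with no filter. With arrays scaled to their 75th percentile the counts were 91 and 36, so that 71.7% of called genes were higher against 82.0% as reported, and the median gene lay at -0.19. Signals near the detection floor (Fbn1 on the Mock array, Tnmd on the EA array, Bgn on both) limit what can be said of size.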

Other observations

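Receptors through which cells hold the matrix differed in both directions. Of 15 with a probe, 7 were detected on both arrays, 1 was at least 2-fold higher and none at least 2-fold lower, with a median of 0.44. The median was 0.23 at a detection threshold of 0.05, and 0.03 both with no filter on detection and at a threshold of 0.001. Cd47, a receptor of thrombospondins, was 2.29-fold higher as reported and short of 2-fold in the authors' deposited table, at a log2 difference of 0.75. Itgb1, the integrin beta chain shared by fibronectin and collagen receptors, was higher by 0.65, and Itga11, a collagen-binding alpha chain, by 0.76. The Mock signal of Itga11 was 5.99, near the floor of 5.78, and its difference was 0.47 with the authors' deposited values. Itga5, the alpha chain of the main fibronectin receptor, was detected only on the EA array and was at least 1.998-fold higher there as reported, just short of 2-fold. That bound was 1.54-fold with the authors' deposited values and 1.31-fold without background correction. Itga7, a laminin-binding alpha chain of muscle fibres, lay the other way at -0.39. Dag1, dystroglycan, differed by -0.19, less than the SD of 0.25 between probes of a gene. Cd36 was higher by 0.44, and Itgb5 differed by 0.03.

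The TGF-beta pathway, a main inducer of matrix genes, had 21 genes with a probe and 13 detected on both arrays, none of them 2-fold different in either direction, and a median of 0.14. Bambi, a decoy receptor that dampens the pathway, was highest at 0.66, followed by the endothelial receptor Acvrl1 at 0.56 and the activin-binding Fst at 0.48. Smad7, the inhibitory SMAD, was lowest at -0.78, with a signal of 5.84 on the EA array near the floor of 5.66, followed by Smad4 at -0.22 and Smad2 at -0.12. The ligands Tgfb2 and Tgfb3 differed by 0.31 and -0.05, and Tgfb1 was detected on neither array.

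Over the 2 arrays, the genes whose pair of log2 signals lay nearest to that of Ccdc80 were Ddit3, Hopx and Coq10b, at distances of 0.08, 0.13 and 0.30. Those nearest to Tnmd were Psip1, Vamp2 and Ampd3, at 0.48, 0.52 and 0.53, all with smaller differences between the arrays. With 2 arrays such nearness describes a pair of signals and nothing more.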
